A study of Mus musculus with 68 samples.

Results

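Transcript levels of the 10 histone deacetylase genes Hdac1, Hdac2, Hdac3, Hdac4, Hdac5, Hdac6, Hdac7, Hdac8, Hdac10 and Hdac11 were followed through mouse somatic cell nuclear transfer (SCNT) embryos and in fertilized blastocysts injected with morpholinos (MO). The genes were taken by symbol, and all 10 were found among the 24421 reference genes listed for each of the 68 RNA-seq libraries. The first experiment holds 3 libraries of cumulus cells (CC), the somatic cells that surround the oocyte and here served as nuclear donors, and 53 libraries of SCNT embryos. These were collected at 6 and 14 h post activation (hpa), at the early and late 2-cell stage (E2C, L2C), with 4 cells (4C), with 8 cells (8C), as morulae, and from blastocysts split into inner cell mass (ICM) and trophectoderm (TE), with 5 libraries at 4C and 6 at every other stage. In the second experiment, fertilized blastocysts gave 12 libraries, 2 for each lineage with control, Max MO or Mcrs1 MO. SCNT oocytes came from BDF1 mice, fertilized embryos in the study's methods from C57BL/6j parents, and no allele is named for any group. All SCNT embryos and CCs are labelled untreated, so no group here received an inhibitor of these enzymes. The control blastocysts are labelled control and untreated, while the treatment description names a random control MO. In the study, sequenced blastocysts had lower doses of Max MO and Mcrs1 MO than of control MO. These doses were also lower than those in its growth curves of development. Each Smart-seq2 reaction used 10 blastomeres, so a library is a small pool and not a single embryo or a whole lineage. The comparisons ask how donor and oocyte transcripts of these genes give way to embryonic ones, and whether loss of the transcription factor Max or of Mcrs1, a subunit of chromatin complexes, moves them.

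Histone deacetylases remove acetyl groups from lysines of histones and other proteins, an activity that generally goes with compact chromatin and lower transcription. Class I enzymes (Hdac1, Hdac2, Hdac3, Hdac8) are mainly nuclear, and Hdac1, Hdac2 and Hdac3 act as catalytic subunits of corepressor complexes. Class IIa enzymes (Hdac4, Hdac5, Hdac7) shuttle between nucleus and cytoplasm and bind MEF2 and 14-3-3 proteins, class IIb (Hdac6, Hdac10) act largely in the cytoplasm, and Hdac11 alone forms class IV. Inhibitors of these zinc-dependent enzymes, such as trichostatin A, are widely added to SCNT embryos because they raise acetylation of the donor chromatin and often improve development.

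The genes lie apart in the genome (mm10), with Hdac1 at chr4:129516104-129542646 on the minus strand, Hdac2 at chr10:36974544-37001888 on the plus strand and Hdac5 at chr11:102195747-102230172 on the minus strand. Hdac7 and Hdac10 share chromosome 15, and Hdac6 and Hdac8 are on the X chromosome. Because Max dimers bind the E-box CACGTG, a palindrome that reads alike on both strands, the promoter windows of RefSeq (GRCm38.p6, 250 bases before to 50 after a gene's start) were searched for these letters. Windows were found for 7 of the 10 genes, and 1 of their 10 windows, that of Hdac5, held the E-box, as did 7.15% of all 32851 windows. Hdac1, Hdac3 and Hdac10 had no window, and the match in Hdac5 was the only one among the 7 genes searched. The match takes bases 4 to 9 counted from the start and is shown here in capitals, within chr11:102230152-102230181 read on the minus strand.
Hdac5: tcggggtcgggtCACGTGacgagagtgacg

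Levels are given as TPM, transcript abundances scaled for transcript length and to a fixed total over the assembled loci of each library. A TPM is therefore a share of a library's RNA and not an amount per embryo. The reference genes used here summed to 30.4 to 94.4% of that total. Their sum was 30.4 to 61.8% at L2C and 87.1 to 89.7% at morula, so levels can differ between libraries through this alone. Rescaling over reference genes to a common total was among the alternative settings. Aligned sequence ranged from 1.00 to 5.17 gigabases per library, and 6177 to 11771 genes reached 1 TPM. Labels were checked against marker lists. In CCs 11 of 12 cumulus and granulosa markers reached 1 TPM and their sum was 1859 to 2737 TPM, although Amh was at 0, while that sum stayed at 39.5 TPM or less in SCNT embryos. Oocyte markers summed to 4315 to 8519 TPM at 6 hpa, when the embryo still holds oocyte RNA, and to 37.6 to 107 TPM at 4C. Libraries of SCNT blastocysts split by replicate number, since replicates 1 to 3 of the ICM detected 6177 to 6771 genes at 1 TPM and replicates 4 to 6 detected 9011 to 10032. Results called differently in the 2 sets are given beside the blastocyst comparisons. The TE-marker sum of the fertilized ICM control was 18626 TPM in replicate 1, as high as in fertilized TE libraries (16919 to 24146 TPM), and 646 TPM in replicate 2. It was 3056 and 6474 TPM in the ICM after Max MO and 9199 and 12854 TPM after Mcrs1 MO. In SCNT blastocysts it overlapped, at 2217 to 9084 TPM in the ICM and 6356 to 17644 TPM in the TE. ICM markers there summed to 310 to 630 TPM in the ICM and 88.4 to 286 TPM in the TE. What part this overlap has in comparisons with the ICM was not tested.

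Hdac1 and Hdac2, the paralogous catalytic subunits of the SIN3, NuRD and CoREST complexes, exchanged places during SCNT development. Hdac2 was the more abundant transcript in every CC library and at every stage through E2C, and Hdac1 in every library from 4C to the ICM. On the scale of TPM + 1 Hdac1 rose 118-fold from 6 hpa to morula, while the medians of Hdac2 lay between 21.8 and 46.5 TPM over these stages.

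Hdac1 stood at 16.4, 30.3 and 17.3 TPM in the 3 CC libraries. At 6 hpa its lowest, median and highest values were 0.177, 0.583 and 2.31 TPM, all below the lowest CC value. Differences were tested with limma on log2(TPM + 1), and a gene was called when its Benjamini-Hochberg adjusted p over all genes tested was under 0.05 and its change was at least 2-fold on that scale. Hdac1 was lower at 6 hpa than in CCs by 3.55 on the log2 scale (SE 0.51, limma adjusted p = 3.21e-08). This comparison sets somatic cells beside embryos that hold oocyte RNA. Oocyte markers summed to at most 2.32 TPM in CCs and to 4315 to 8519 TPM at 6 hpa. A change in donor transcripts cannot be told apart from this difference in source. Hdac1, Hdac2 and Hdac3 were the 3 of 7 tested deacetylase genes called here, in a comparison that called 61.4% of all genes, so a share of this size is not particular to them. They were also the 3 whose groups did not overlap, which held for 70.4% of all genes. Hdac5, Hdac7 and Hdac11 had mean TPM under 1 and were not tested in either experiment.

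Hdac1 then climbed stage by stage. Its lowest, median and highest TPM were 0, 2.57 and 5.31 at 14 hpa, 2.03, 6.41 and 13.1 at E2C, and 12.7, 26.5 and 50.3 at L2C. The 5 libraries at 4C held 43.3, 60.4, 41.2, 138 and 100.5 TPM, and 8C spanned 78.1 to 228 with a median of 200.02 TPM. Morula libraries ran from 150.3 to 479 TPM (median 179.96), so that neighbouring stages overlapped throughout while 6 hpa and morula lay far apart. The step from 14 hpa to E2C was 1.22 ± 0.42 (log2, SE) and missed the threshold (limma adjusted p = 0.0662). It was called with a pseudocount of 0.1, after rescaling over reference genes, after quantile normalization and with the replicate block. Replicates 1 to 3 alone called it too, as did leaving out 14 hpa replicate 6 or E2C replicate 4 or 5. From E2C to L2C the gene rose by 2.15 ± 0.42 (adjusted p = 4.13e-05), from L2C to 4C by 1.33 ± 0.44 (adjusted p = 0.0122) and from 4C to 8C by 1.17 ± 0.44 (adjusted p = 0.049). The call at L2C was lost in replicates 1 to 3 alone (adjusted p = 0.0829). The call at 4C was lost without 4C replicate 4, the library with the highest value there (adjusted p = 0.0607). It was also lost with a pseudocount of 0.1 and in replicates 1 to 3 alone (at most 0.255). The call at 8C did not survive 7 of 10 alternative settings (adjusted p of at most 0.273), nor leaving out 4C replicate 1, 2 or 3 or 8C replicate 3, 4, 5 or 6 (at most 0.146). Between 8C and morula Hdac1 differed by 0.47 ± 0.42 (adjusted p = 0.523), which leaves the order of those stages within their spread.

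**Figure D1:**
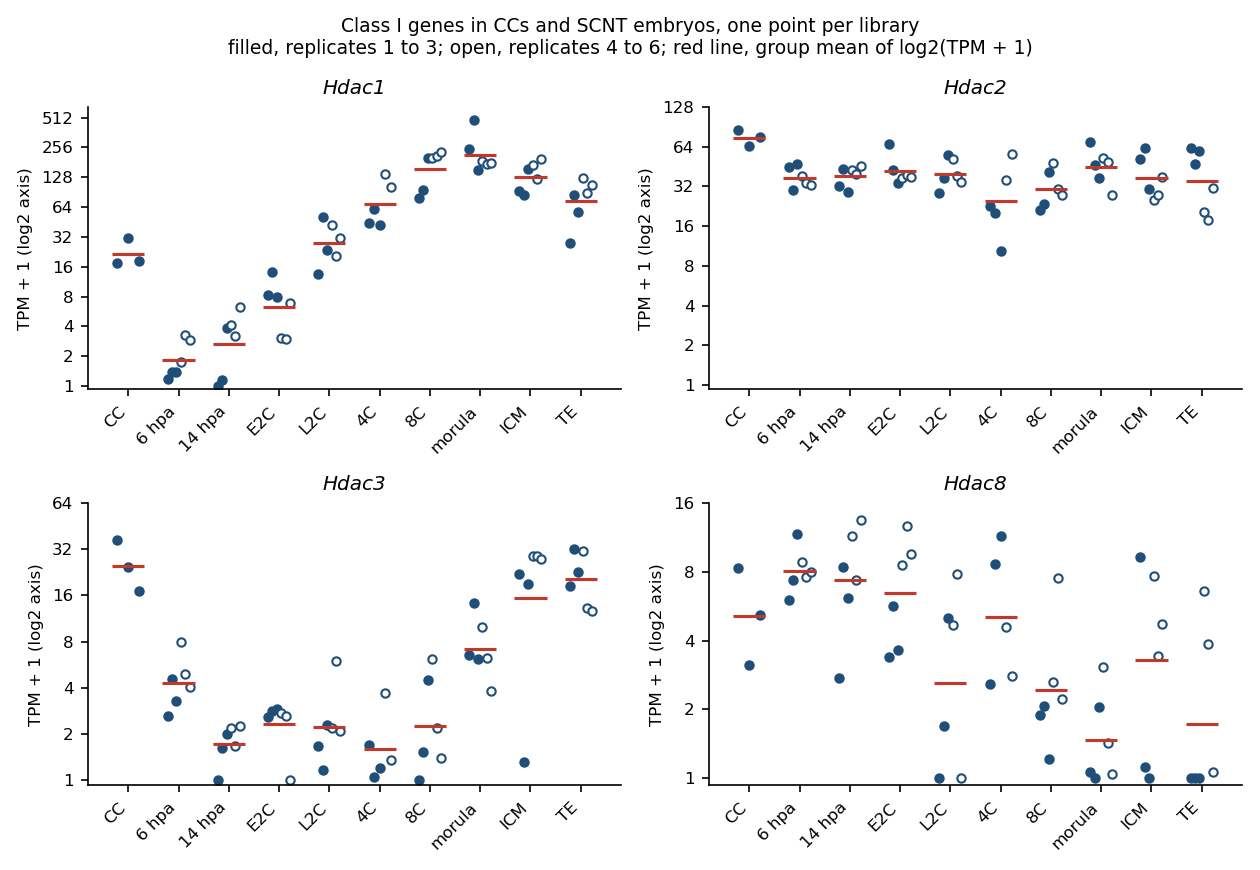
Transcript levels of Hdac1, Hdac2, Hdac3 and Hdac8 (TPM + 1, log2 axis) in CCs and at each SCNT stage; points are libraries (filled for replicates 1 to 3, open for replicates 4 to 6) and red lines are group means of log2(TPM + 1). Hdac1 climbs from a median of 0.583 TPM at 6 hpa to 179.96 TPM at morula, whereas Hdac3 is at a median of 0.855 TPM at 8C and 19.6 TPM in the TE.

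Over the whole interval from 6 hpa to morula Hdac1 rose by 6.88 ± 0.42 (log2, SE; limma adjusted p = 4.96e-21). This comparison called 4 of the 7 tested deacetylase genes and 70% of all genes, and 3 of them, Hdac1, Hdac8 and Hdac10, had groups that did not overlap, as had 63.4% of all genes. The rise kept its call in all 10 alternative settings and without any single library, and its size depended on the pseudocount, being 8.06 on the log2 scale with 0.1. Oocyte markers moved the opposite way, from 4315 to 8519 TPM at 6 hpa to at most 11.3 TPM at morula, and the part of that change in these levels was not tested.

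Hdac2 held 84.5, 63.4 and 75.3 TPM in CCs and 29.2, 35.4 and 46.2 TPM (lowest, median, highest) at 6 hpa, with no overlap. The difference was -1.002 ± 0.37 on the log2 scale (limma adjusted p = 0.0172), at the 2-fold limit. It was no longer called after quantile normalization, after rescaling over reference genes or with the replicate block (adjusted p of at most 0.186), and neither was it without CC replicate 1 or 3 or 6 hpa replicate 2, 5 or 6 (adjusted p of at most 0.0719). At later stages the medians of Hdac2 lay between 21.8 TPM at 4C and 46.5 TPM at morula. No step between neighbouring SCNT stages was called for it, the nearest being L2C to 4C, where it differed by -0.68 ± 0.32 (adjusted p = 0.083). In replicates 1 to 3 alone that step was called (-1.20 ± 0.41, adjusted p = 0.0336).

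**Figure D2:**
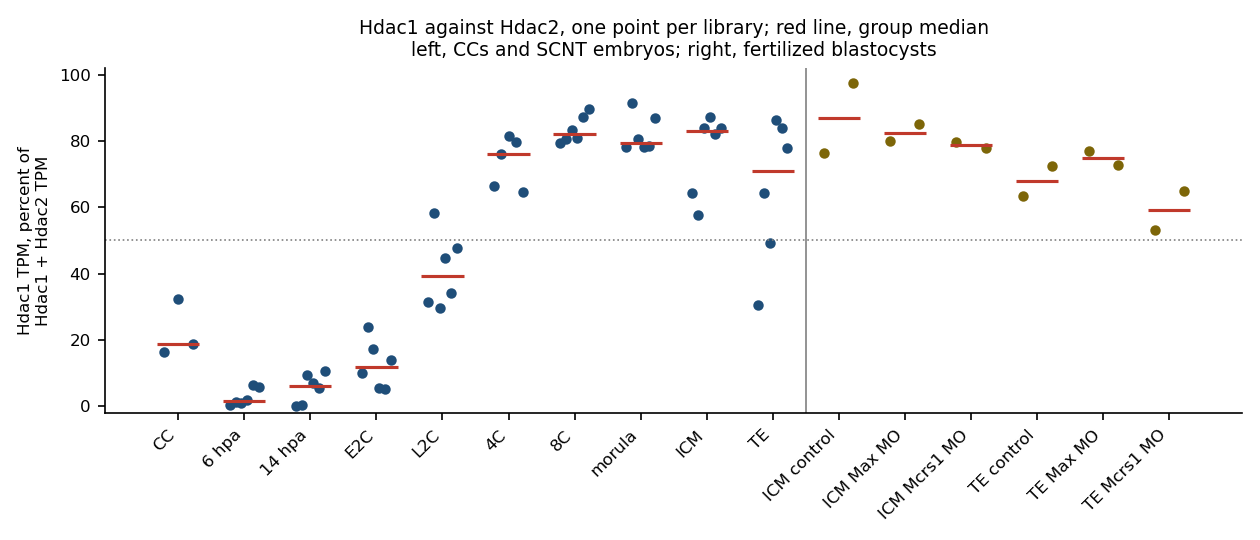
Hdac1 as a percent of the sum of Hdac1 and Hdac2 TPM, with CCs and SCNT stages on the left and fertilized blastocysts on the right; points are libraries, red lines group medians, and the dotted line is at 50%. Medians are 1.68% at 6 hpa, 39.4% at L2C and 75.9% at 4C, libraries of the SCNT TE fall on both sides of the dotted line, and all 12 fertilized libraries lie above it.

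The exchange is clearest as the share of Hdac1 in the sum of the pair, which within a library does not depend on scaling. This share was 16.2, 18.7 and 32.3% (lowest, median, highest) in the 3 CC libraries and 0.403, 1.68 and 6.50% at 6 hpa. It was 5.08, 11.9 and 23.9% at E2C and 29.5, 39.4 and 58.4% at L2C, where Hdac1 exceeded Hdac2 in 1 of 6 libraries. At 4C the range was 64.6 to 81.5%, and Hdac1 was ahead in 5 of 5 libraries there and in 6 of 6 at 8C, morula and ICM. The crossing thus fell between L2C and 4C. In the TE the share ranged from 30.5 to 86.4%, with Hdac1 ahead in 4 of 6 libraries. Replicates 1 to 3 held 30.5, 64.2 and 49.3%, and replicates 4 to 6 held 86.4, 83.8 and 77.9%. No test was made of the share, whose parts are the levels tested above.

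Hdac3, the catalytic subunit of the NCoR and SMRT corepressors, was high at both ends of the series and low between them. CC libraries held 35.6, 23.5 and 16.2 TPM and 6 hpa libraries 1.63, 3.34 and 6.96 TPM (lowest, median, highest), without overlap. Hdac3 was lower at 6 hpa by 2.53 on the log2 scale (SE 0.60, limma adjusted p = 0.000263) and kept this call in all 7 alternative settings and without any of the 9 libraries. No deacetylase gene was called between 6 and 14 hpa, where 11.2% of all genes were called and 1 of the 7, Hdac3, had an unadjusted p under 0.05. Hdac3 stood at 0, 0.846 and 1.26 TPM at 14 hpa, below every 6 hpa library (11.5% of all genes had groups without overlap), a difference of -1.31 ± 0.49 with adjusted p = 0.0685. With the replicate number as a block it was called (adjusted p = 0.0463).

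From E2C to 8C the medians of Hdac3 were 0.360 to 1.70 TPM. Morula libraries held 2.82, 5.42 and 13.3 TPM and 8C libraries 0, 0.855 and 5.21 TPM, with a small overlap. The rise of 1.68 ± 0.49 (log2, SE; limma adjusted p = 0.0158) made Hdac3 the only 1 of 7 deacetylase genes called, where 12.6% of all genes were. It was lost without 8C replicate 1 or morula replicate 2 (adjusted p of at most 0.0597) and with replicates 1 to 3 or 4 to 6 alone. In the TE Hdac3 held 11.7, 19.6 and 31.3 TPM, a further rise of 1.498 ± 0.49 over morula (adjusted p = 0.0193), which was lost without morula replicate 6 (adjusted p = 0.0582) and in replicates 1 to 3 alone (1.51 ± 0.73, adjusted p = 0.163), but not in replicates 4 to 6 alone (1.49 ± 0.55, adjusted p = 0.0407).

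Hdac8, an X-linked class I enzyme that deacetylates the cohesin subunit Smc3, ran opposite to Hdac1. Its lowest, median and highest values were 5.02, 6.80 and 10.7 TPM at 6 hpa and 0, 0.240 and 2.06 TPM at morula, without overlap, while CC libraries held 7.30, 2.11 and 4.18 TPM. From 6 hpa to morula it fell by 2.46 on the log2 scale (SE 0.54, limma adjusted p = 6.66e-05), a call kept in all 9 alternative settings and without any of the 12 libraries. At E2C and L2C the medians were 6.09 and 2.19 TPM with overlapping ranges. That step of -1.31 ± 0.54 (adjusted p = 0.0493) and the rise of Hdac1 were the 2 of 7 calls, against 34.7% of all genes. For Hdac8 the call was lost in 4 of 9 alternative settings (adjusted p of at most 0.347) and without E2C replicate 2, 4, 5 or 6 or L2C replicate 1, 2 or 6 (at most 0.146). Between 14 hpa and E2C no deacetylase gene was called, 6% of all genes were, and Hdac1 was the 1 with an unadjusted p under 0.05.

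Class IIa genes were low in SCNT embryos in the values of the reference genes. Assembled loci at Hdac4 and Hdac5 held more, with median ratios of 4.10 and 3.91 over all libraries with at least 1 TPM of the gene. Hdac4 held 5.26, 1.80 and 3.54 TPM in CCs, and its medians were between 0.113 TPM at 8C and 2.23 TPM in the ICM. In the fit described above it was not called in any comparison. After rescaling over reference genes Hdac4 was called higher at L2C than at E2C (1.40 ± 0.48, limma adjusted p = 0.0145). With a pseudocount of 0.1 it was called higher at morula than at 8C (2.53 ± 0.80, limma adjusted p = 0.0303). At morula every library (0.552 to 1.64 TPM) lay above every 8C library (0.0112 to 0.190 TPM), a separation that 9.43% of all genes showed, with a difference of 0.92 ± 0.43 on the log2 scale (limma adjusted p = 0.148). Hdac5 was listed at 7.48, 6.14 and 3.87 TPM in CCs and at 1.59 TPM or less in all 53 SCNT libraries, so the groups did not overlap, as held for 5.24% of the 23985 genes with any signal there. Hdac7 was at 0.854, 0.313 and 0.0499 TPM in CCs, at 0.0734 TPM or less in SCNT embryos, and listed at 0 in every library at 4C and morula and in the ICM and TE. Neither Hdac5 nor Hdac7 passed the filter for testing. With no filter on low TPM Hdac5 was called lower at 6 hpa (-2.68 ± 0.22, 34.2% of all genes called) and in the ICM (-2.64 ± 0.22, 21.5%) than in CCs.

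**Figure D3:**
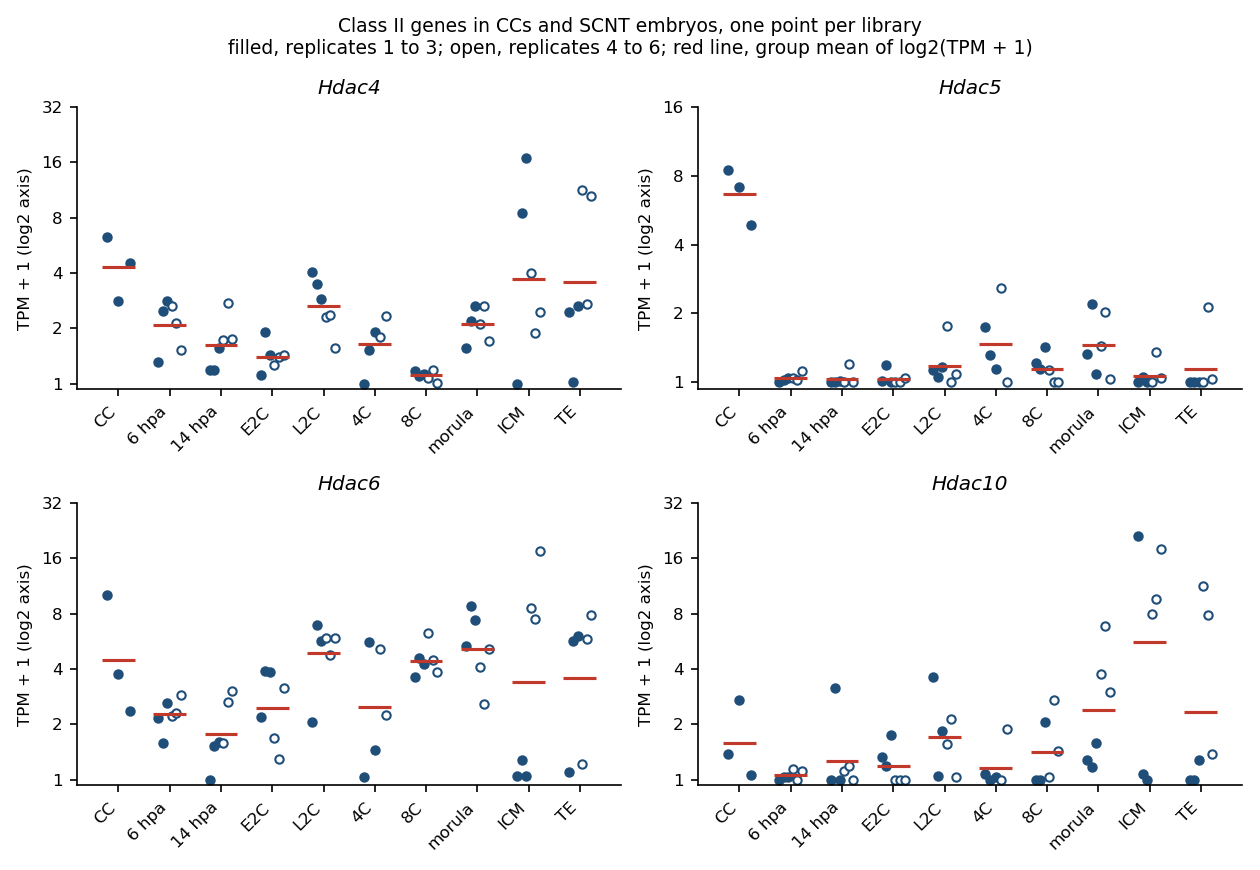
Transcript levels of Hdac4, Hdac5, Hdac6 and Hdac10 (TPM + 1, log2 axis) in CCs and at each SCNT stage, with filled points for replicates 1 to 3, open points for replicates 4 to 6 and red lines at group means of log2(TPM + 1). Hdac5 is at 3.87 to 7.48 TPM in CCs and at most 1.59 TPM in SCNT embryos, and the ICM libraries of Hdac6 and Hdac10 are widely spread.

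Of the class IIb genes, Hdac6, which deacetylates tubulin, rose from 0.586, 1.26 and 1.89 TPM at 6 hpa to 1.57, 4.23 and 7.78 TPM (lowest, median, highest) at morula. The ranges overlapped slightly and the rise was 1.19 ± 0.53 (log2, SE; limma adjusted p = 0.039). Hdac10, a polyamine deacetylase, went from 0, 0.0295 and 0.143 TPM to 0.170, 1.28 and 5.88 TPM over the same interval. These groups did not overlap, and the rise was 1.18 ± 0.55 (adjusted p = 0.0492). Both calls were fragile. That of Hdac6 was lost in 5 of 9 alternative settings (adjusted p of at most 0.293) and without 6 hpa replicate 1, 2, 4 or 5 or morula replicate 1, 2, 3 or 6 (at most 0.0889). That of Hdac10 was lost in 4 of 9 settings (at most 0.661), and on leaving out any one 6 hpa library or morula replicate 4, 5 or 6 (at most 0.16). Hdac11, the class IV enzyme, was at 0 in all 3 CC libraries and reached 1 TPM only at L2C, where the 6 libraries held 4.62, 0, 3.49, 0, 1.86 and 0.230 TPM.

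The remaining steps gave few calls. Between L2C and 4C Hdac1 was the only 1 of 7 deacetylase genes called (38.3% of all genes), and between 4C and 8C again only Hdac1 (20% of all genes). The summed TPM of the 10 genes averaged 140 ± 23.7 in CCs (SD, n = 3), 51.3 ± 7.67 at 6 hpa (SD, n = 6) and 297 at morula. Hdac2 made up 66.8 to 84.0% of that sum at 6 hpa and 8.25 to 21.0% at morula, so that the sum followed first Hdac2 and then Hdac1.

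**Figure D4:**
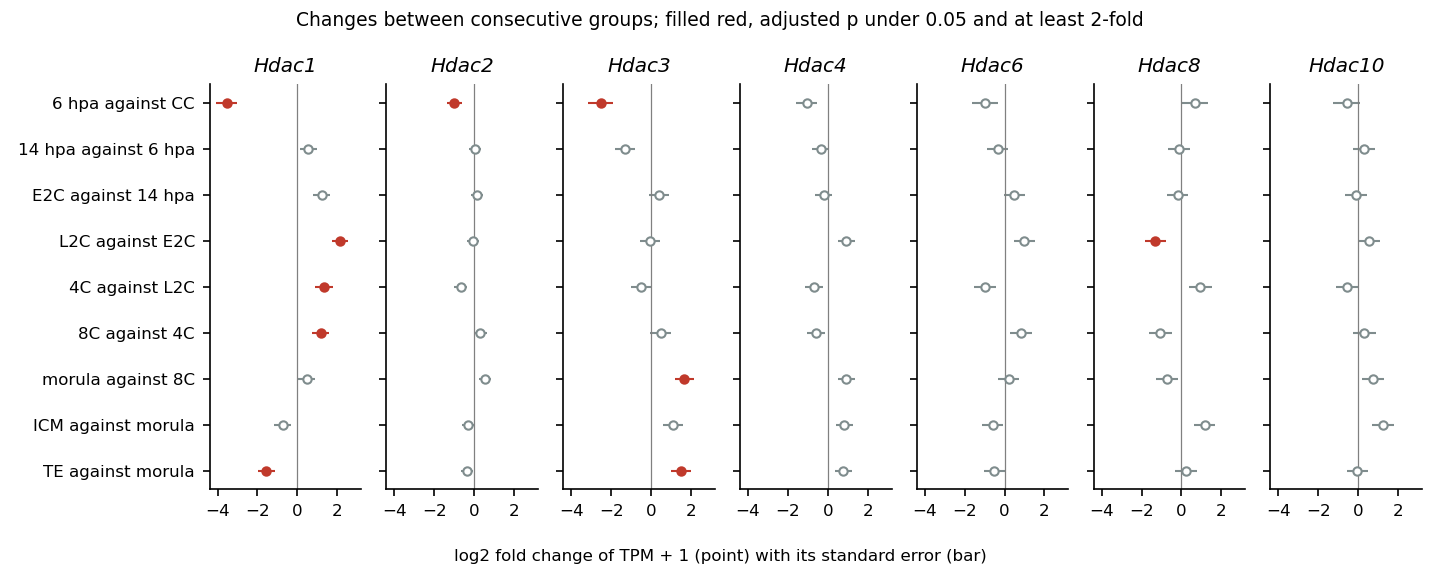
Changes of the 7 tested deacetylase genes between consecutive groups, as log2 fold changes of TPM + 1 (points) with their SE (bars); filled red points have an adjusted p under 0.05 and at least a 2-fold change. Hdac1 is called lower at 6 hpa (-3.55), higher in 3 steps from E2C to 8C and lower in the TE (-1.56), Hdac3 is called in 3 steps, and Hdac4, Hdac6 and Hdac10 in none.

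At the blastocyst stage 0 of 7 deacetylase genes were called in SCNT embryos between ICM and TE, against 5.79% of all genes. Hdac10 was the 1 with an unadjusted p under 0.05. Its ICM values were 0, 7.78 and 20.2 TPM (lowest, median, highest) and its TE values 0, 0.327 and 10.4 TPM, which overlap widely (-1.27 ± 0.55 on the log2 scale, limma adjusted p = 0.177). It was called lower in the TE with ICM replicates 4 to 6 only, a setting chosen after seeing the data (-2.26 ± 0.54, adjusted p = 0.00672), and without ICM replicate 2 or 3 or TE replicate 4 (-1.75, -1.77 and -1.73). Hdac4 was called higher in the TE than in the ICM (1.37 ± 0.41, adjusted p = 0.0372) and morula (1.69 ± 0.41, adjusted p = 0.00269) in replicates 4 to 6 alone, and in replicates 1 to 3 alone the differences were -1.48 ± 0.64 and -0.15 ± 0.64 with no call. Against morula it was also called without TE replicate 2 (1.14 ± 0.42, adjusted p = 0.0419). Hdac1 held 83.5, 137 and 193 TPM in the ICM and 27.0, 85.3 and 124 TPM in the TE (-0.82 ± 0.42, adjusted p = 0.286). Against morula, the TE was lower in Hdac1 by 1.56 ± 0.42 (adjusted p = 0.00389), with no overlap (13.4% of all genes), and 2 of 7 deacetylase genes were called with Hdac3, against 22% of all genes. In replicates 4 to 6 alone the change of Hdac1 was -0.76 ± 0.32 (adjusted p = 0.0731), and in replicates 1 to 3 alone it was -2.35 ± 0.57 (adjusted p = 0.00479).

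The ICM gave 0 of 7 calls against morula, with 24% of all genes called and 3 deacetylase genes (Hdac3, Hdac8, Hdac10) at an unadjusted p under 0.05. The 2 sets of ICM libraries differed here. Hdac6 was at 0.0439 to 0.276 TPM in replicates 1 to 3, which detected fewer genes, and at 6.48 to 16.6 TPM in replicates 4 to 6. Its change from morula was -2.65 ± 0.61 in replicates 1 to 3 alone (limma adjusted p = 0.0021) and 1.46 ± 0.53 in replicates 4 to 6 alone (adjusted p = 0.0359), opposite directions that both passed the threshold. With ICM replicates 4 to 6 only, Hdac3 (1.98 ± 0.48, adjusted p = 0.00164), Hdac8 (1.76 ± 0.61, adjusted p = 0.0321) and Hdac10 (2.22 ± 0.54, adjusted p = 0.00183) were called higher than at morula, and Hdac3 was so in replicates 4 to 6 alone (2.20 ± 0.55, adjusted p = 0.00348) but not in replicates 1 to 3 alone (-0.02 ± 0.73). Hdac2 split the TE in the same way, with 46.6 to 61.6 TPM in replicates 1 to 3 and 16.8 to 29.96 TPM in replicates 4 to 6. How far depth takes part in these differences was not tested.

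Compared with the donor CCs, the SCNT ICM was higher in Hdac1 by 2.60 ± 0.51 (log2, SE; limma adjusted p = 4.12e-05) and lower in Hdac2 by 1.01 ± 0.37 (adjusted p = 0.0256), neither with overlap (30.6% of all genes). With Hdac10 (1.83 ± 0.67, adjusted p = 0.0253) these were 3 of 7, against 37.9% of all genes. The call of Hdac1 held whichever library was left out. That of Hdac2 was lost without CC replicate 1 or 3 or ICM replicate 3, 4 or 5 (adjusted p of at most 0.103), that of Hdac10 without CC replicate 1 or 3 or ICM replicate 1, 5 or 6 (adjusted p of at most 0.132), and both with the replicate block. Hdac3 reached 24.0 TPM in the median ICM library, and its difference from CC was -0.70 ± 0.60 (adjusted p = 0.397).

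Subunits of the complexes that carry these enzymes were described from gene lists, by counts of calls and by the median log2 change beside that of all genes tested. Among 12 SIN3 subunits, 5 were higher and 3 lower at 6 hpa than in CCs. Sap30 (4.74) and the scaffold Sin3a (4.34) were highest and Brms1 (-2.41) and Arid4b (-1.88) lowest, and the list's median was 0.79 against -0.28 for all genes. These 8 of 12 are close to the 61.4% of all genes called there. From 6 hpa to morula 2 rose and 6 fell, and the median was -1.19 against 0.54, with 8 of 12 called again close to the 70% of all genes. There Sap30 (-5.16) and Sin3a (-4.91) fell while Brms1 (4.35) and the histone chaperone Rbbp4 (3.68) rose. Sap30 and Sin3a thus differed in the direction opposite to Hdac1 in both comparisons, and Brms1 in the same direction as Hdac1. Of 9 NuRD subunits tested, 4 rose and 3 fell from 6 hpa to morula, with Cdk2ap1 (5.82) and Mta2 (4.71) highest, Gatad2b (-2.41) and Mbd2 (-2.26) lowest, and a median of 0.06 against 0.54, and 7 of 9 is likewise near 70%. Of 4 CoREST subunits tested, 1 rose from 6 hpa to morula, Hmg20b (2.69), and 2 fell, Rcor1 (-2.52) and the demethylase Kdm1a (-1.43). Their median was -0.45 against 0.54, where 70% of all genes were called.

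Subunits of the NCoR and SMRT complexes, which hold Hdac3, had 4 of 5 genes tested. From L2C to 4C 3 of them fell and 0 rose (median -1.502, all genes -0.33), where 38.3% of all genes were called. From morula to TE 3 rose and 0 fell, among them Tbl1xr1 (1.86) and Tbl1x (1.72), with a median of 1.67 against -0.03 and 22% of all genes called, in the interval in which Hdac3 rose too. From 8C to morula, where Hdac3 also rose, 0 rose and 0 fell (median 0.12 against 0.19, 12.6% of all genes called). At 6 hpa against CC, where Hdac3 was lower, 1 was higher and 1 lower (median -0.97 against -0.28, 61.4% of all genes called). Of 8 partners of class IIa enzymes tested, 5 rose and 1 fell from 6 hpa to morula, where 70% of all genes were called. The 14-3-3 genes Ywhaq (4.29) and Ywhah (2.44) were highest and Ywhag (-1.06) lower, with a median of 1.53 against 0.54. The 7 sirtuins, which are NAD-dependent deacetylases of a separate family, had 3 higher (Sirt7, 2.5, and Sirt6, 2.28, leading) and 1 lower (Sirt4, -3.51) over that interval, 4 of 7 against 70% of all genes, with a median of 0.43. Of 10 histone acetyltransferases, the enzymes that add the mark, 3 were higher and 2 lower at 6 hpa than in CCs. Kat6b (3.06), Hat1 (1.67), Kat2b (-2.90) and Kat5 (-2.06) are named by size. Calls were 5 of 10 against 61.4% of all genes, and the median was 0.34 against -0.28.

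Among 12083 other genes, those closest to Hdac1 by Pearson's r over the 10 group means of log2(TPM + 1) were Gart (0.993), Wdr77 (0.991) and Zc3hc1 (0.991), and 953 genes reached 0.9. The pattern of Hdac2 was rarer, with 10 genes at 0.9 or more and Scarb1 (0.954), Gnas (0.951) and Dazap1 (0.942) closest. Closest to Hdac3 were Pdlim5 (0.993), Trip10 (0.982) and Mvp (0.977). Among the deacetylase genes themselves r was 0.86 between Hdac3 and Hdac4 and -0.84 between Hdac1 and Hdac8. These values describe 10 points whose groups also differ in depth, and carry no test.

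In fertilized blastocysts Hdac1 was again the most abundant deacetylase transcript and exceeded Hdac2 in all 12 libraries. The MO targets were examined first. Max was at 38.0 and 8.42 TPM in the control ICM and 6.82 and 0.443 TPM after Max MO (-2.51 on the log2 scale, limma adjusted p = 0.0397), and at 34.5 and 28.5 against 16.3 and 8.68 TPM in the TE (-1.32, adjusted p = 0.39). Mcrs1 was at 253 and 310.05 against 86.8 and 73.4 TPM in the ICM (-1.80, adjusted p = 0.00333) and at 219 and 294 against 41.1 and 45.5 TPM in the TE (-2.53, adjusted p = 0.000868). A translation-blocking MO need not lower its transcript, so these values check the labels and not the loss of protein.

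Hdac1 held 283 and 491 TPM in the control ICM and 141 and 177 TPM in the control TE, a difference of -1.23 ± 0.25 (log2, SE; limma adjusted p = 0.0324). It was 1 of 7 deacetylase genes called, against 2.92% of all genes, and 1 of 3, with Hdac8 and Hdac10, whose groups did not overlap, against 43.6%. The call was lost without ICM control replicate 2 or either TE control library (adjusted p of at most 0.196), and when only control libraries entered the fit (adjusted p = 0.45). Direction matched the SCNT blastocysts, where the difference was not called.

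No deacetylase gene was called after either MO in either lineage. Max MO called 0 of 7 in the ICM (23.7% of all genes) and 0 of 7 in the TE (2.5%), and Mcrs1 MO called 0 of 7 in the ICM (10.1%) and 0 of 7 in the TE (5.08%). An unadjusted p under 0.05 was found for 1, 0, 1 and 0 of them in that order. Each treatment was compared with the same pair of control libraries per lineage, so the results of both MOs share their controls. The study gives unequal doses for Max MO, Mcrs1 MO and control MO. With 2 libraries a group, groups did not overlap for 56.9% and 57.5% of all genes after Max MO in the ICM and TE and for 49.7% and 62.3% after Mcrs1 MO, against 2, 6, 3 and 4 of the 7 deacetylase genes, so that absence of overlap carries little weight.

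Hdac1 held 272 and 300 TPM in the ICM after Max MO and 222 and 254 TPM after Mcrs1 MO, the latter below both controls (-0.65 ± 0.25, limma adjusted p = 0.113). In the TE it held 179 and 184 TPM after Max MO and 179 and 171 TPM after Mcrs1 MO, close to the controls. Hdac2 was at 87.2 and 13.0 TPM in the control ICM, at 68.7 and 52.7 TPM after Max MO and at 56.2 and 71.9 TPM after Mcrs1 MO. The 2 control values thus enclosed all 4 others. Without ICM control replicate 1, whose TE markers were as high as in TE libraries, Hdac2 was called higher (Max MO 2.13, adjusted p = 0.00187; Mcrs1 MO 2.20), Hdac6 lower (-2.86 and -2.25) and Hdac1 lower after Mcrs1 MO (-1.04, adjusted p = 0.00527). These rest on the single control library that remained, and the lone sample is taken to vary like the other groups.

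Hdac3 ranged from 21.2 to 55.8 TPM over all 12 libraries with no call. Hdac8 was at 0 and 0.671 TPM in the control ICM and at 3.01 and 3.56 TPM after Max MO, both above both controls (1.73 ± 0.64, limma adjusted p = 0.0658). In the TE it was at 1.89 and 0.951 TPM in controls and 6.73 and 3.61 TPM after Max MO (1.33 ± 0.64, adjusted p = 0.269). Both lineages had both MO libraries above both controls, and the ICM difference was called without ICM control replicate 2 (2.10, adjusted p = 0.0471). After Mcrs1 MO, Hdac8 was at 3.31 and 0.865 TPM in the ICM and at 0.709 and 0 TPM in the TE.

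**Figure D5:**
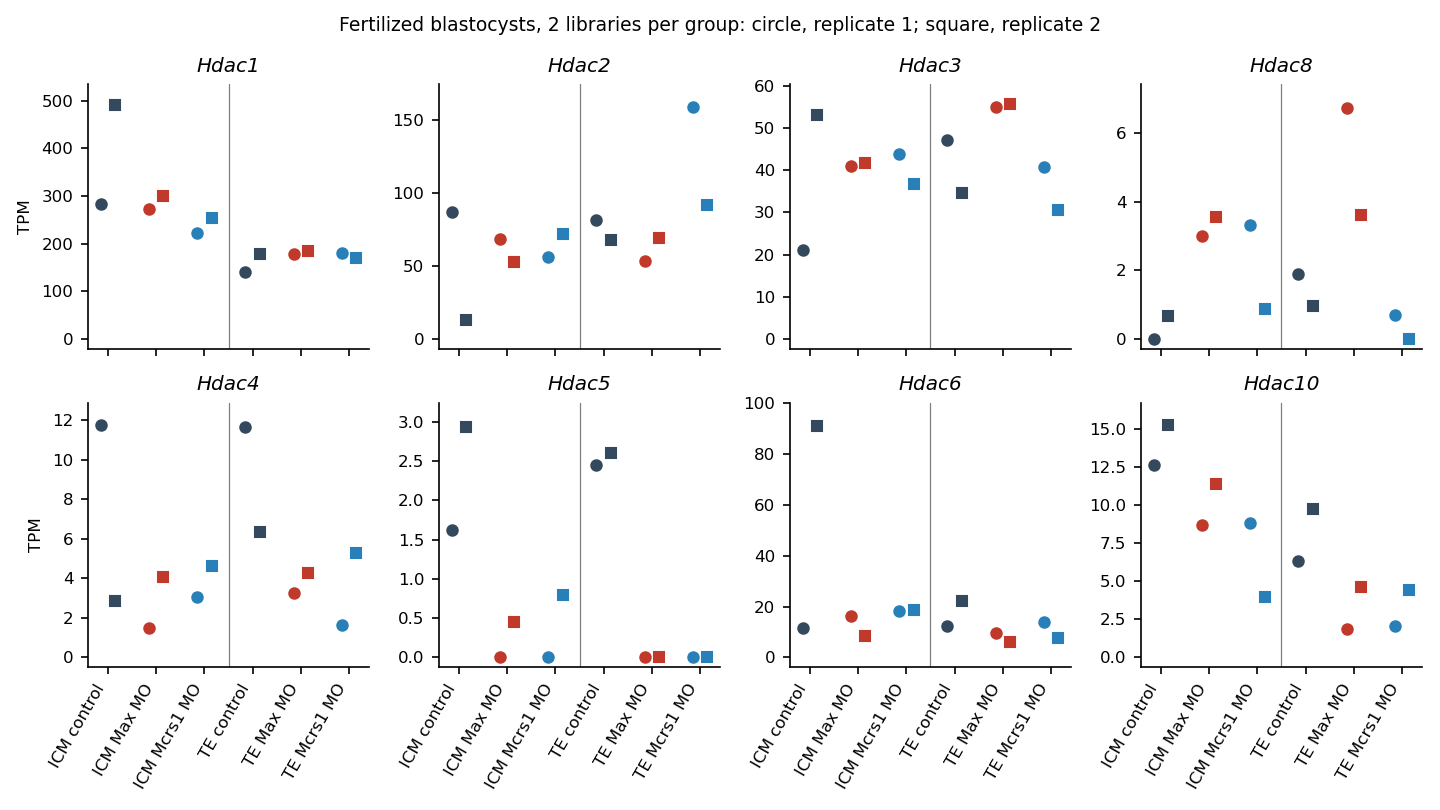
Transcript levels (TPM, linear axes that differ between genes) of 8 deacetylase genes in the ICM and TE of fertilized blastocysts with control (dark), Max MO (red) or Mcrs1 MO (blue); a circle is replicate 1 and a square replicate 2. The 2 ICM controls of Hdac2 (87.2 and 13.0 TPM) lie far apart, and Hdac5 is above 0 in all 4 controls and in 2 of the 8 MO libraries.

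Hdac6 was at 11.7 and 91.2 TPM in the control ICM, and the second of these was the highest value of the gene in any library. After MO it was between 6.00 and 18.5 TPM in both lineages. Hdac10 was at 12.6 and 15.2 TPM in the control ICM and lower in all 4 MO libraries of that lineage (3.98 to 11.3 TPM), as it was in the TE (6.33 and 9.72 TPM in controls, 1.83 to 4.64 TPM after MO). Its 4 differences lay between -1.15 and -0.44 on the log2 scale and none was called, the lowest limma adjusted p being 0.231. Hdac4 ranged from 1.48 to 11.8 TPM without a call.

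Hdac5, whose promoter window holds the E-box shown above, was at 1.62 and 2.94 TPM in the control ICM and 2.45 and 2.61 TPM in the control TE. After Max MO it was listed at 0 and 0.446 TPM in the ICM and at 0 in both TE libraries. After Mcrs1 MO the values were 0 and 0.794 TPM in the ICM and again 0 in both TE libraries, so all 8 MO libraries lay below all 4 controls, a separation in either direction that 8.61% of the 19642 genes with any signal showed. Controls and MO libraries were also apart in the part of the TPM total held by reference genes. It was 85.5 to 90.3% in the controls and 93.6 to 94.4% after MO, and its part in these levels was not tested. Hdac5 failed the filter on mean TPM, and its values below 1 TPM were not compared with assembled loci. With no filter on low TPM it was the 1 deacetylase gene called after Max MO in the ICM (adjusted p = 0.0327, 10.6% of all genes called) and the 1 called after Mcrs1 MO in the TE (adjusted p = 0.0401, 1.95%). No fold is given against groups listed at 0, as the tables hold no counts from which a floor could be set. Hdac7 was at 1.23 TPM or less and Hdac11 at 0.0332 TPM or less in these libraries.

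Whether the response to an MO differed between TE and ICM was tested as an interaction. For both MOs 0 of 7 deacetylase genes and 0% of the 11219 genes tested were called by limma, while 1473 genes for Max MO and 972 for Mcrs1 MO had an unadjusted p under 0.05. Among these were 0 deacetylase genes for Max MO and 2 for Mcrs1 MO, Hdac1 (0.79 ± 0.35, adjusted p = 0.569) and Hdac8 (-1.99 ± 0.90, adjusted p = 0.574). Of the partner lists, after Max MO in the ICM 0 NuRD subunits rose and 3 of 10 fell, with Gatad2a (-1.84) and the remodeller Chd4 (-1.49) lowest, and 2 of 4 NCoR and SMRT subunits fell, Tbl1xr1 (-2.02) and Ncor1 (-1.87), in a comparison that called 23.7% of all genes. In the same comparison 3 SIN3 subunits rose and 3 fell, and 4 of 9 acetyltransferases fell and 0 rose, with a list median of -1.33 against -0.21 for all genes. After Mcrs1 MO, 1 of 9 acetyltransferases rose (Hat1) and 1 fell (Kat2a), both in the ICM (1.10 and -1.18) and in the TE (1.28 and -2.05). Of 5 CoREST subunits tested, 2 fell and 0 rose in the TE, Hmg20b (-1.94) and Kdm1a (-1.66). Mcrs1 MO called 10.1% of all genes in the ICM and 5.08% in the TE.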

How the data were processed

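Smart-seq2 reads were trimmed with Cutadapt 1.16, aligned to mm10 with HISAT2 and quantified with StringTie by the authors (other versions are not given in the sources used here). The deposited tables give coverage, FPKM and TPM per gene. The authors' TPM sum to a fixed total over assembled loci, and the reference genes used here are listed on the same scale. TPM of rows sharing a symbol were summed. Deposited FPKM were not used further, and the deposited coverage signal gave the aligned gigabases. Isoforms cannot be compared in tables per gene.

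As the tables hold no counts, limma 3.58.1 (R 4.3.3, trend) was fitted to log2(TPM + 1) over genes with mean TPM of at least 1, in 56 CC and SCNT libraries (12084 genes) and in 12 fertilized libraries (11219 genes). It was tested on simulated data. The deacetylase genes and gene lists were chosen with earlier results of these data known. Named list genes are the 2 with the largest called change per direction, and the 3 nearest by r. Lists were SIN3, NuRD, CoREST, NCoR and SMRT, class IIa partners, sirtuins and acetyltransferases. Same-numbered libraries varied alike (every r over 0.1) for 14 against 6 hpa (0.155 to 0.393, 6 pairs). The same held for SCNT TE against ICM (0.124 to 0.283, 6 pairs). The closest library carried the same number for only 1 of 6 and 2 of 6 libraries, so pairing by number is not established. Nothing states that replicates are separate cultures, so p-values measure the spread between samples, which may be technical. The median log2 change of all genes was -0.28 for 6 hpa against CC and 0.54 for morula against 6 hpa, and quantile normalization, which removes such shifts, was among the alternatives.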

Additional observations from a re-analysis of the deposited data

Results flagged for a closer look

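In 24 of 85 gene and stage groups of 5 or 6 libraries, 1 library stood apart from the rest by Dixon's criterion, which chance alone gives in about 1 in 20 groups. Many of these are genes at or near 0 in which a single library had any signal.

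Among the more abundant genes, morula replicate 2 held 479 TPM of Hdac1 (next 248), E2C replicate 1 held 66.4 TPM of Hdac2 (next 41.7), 8C replicate 4 held 5.28 TPM of Hdac6 (next 3.57) and 8C replicate 5 held 6.53 TPM of Hdac8 (next 1.64). Hdac3 was low in SCNT ICM replicate 2 at 0.325 TPM (next 18.1) and in E2C replicate 6 at 0 TPM (next 1.58), and high in L2C replicate 5 at 5.01 TPM (next 1.30) and in 4C replicate 4 at 2.70 TPM (next 0.690).

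Among 14 hpa libraries, Hdac4 stood apart in replicate 5 at 1.73 TPM. Hdac5 stood apart in 6 hpa replicate 6 (0.116 TPM), 14 hpa replicate 5 (0.203 TPM), E2C replicate 2 (0.183 TPM), L2C replicate 4 (0.756 TPM), SCNT ICM replicate 5 (0.348 TPM) and SCNT TE replicate 5 (1.13 TPM). Hdac7 did so in E2C replicate 6 (0.00255 TPM) and 8C replicate 4 (0.0201 TPM), with every other library of those stages at 0. Within their stages, Hdac10 stood apart in 14 hpa replicate 2 (2.15 TPM) and 4C replicate 5 (0.885 TPM). Hdac11 had a single high library at 6 hpa (replicate 3, 0.158 TPM), 14 hpa (replicate 4, 0.177 TPM), 8C (replicate 1, 0.173 TPM), morula (replicate 5, 0.866 TPM) and in the SCNT ICM (replicate 6, 0.0345 TPM).

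After Mcrs1 MO, Hdac8 moved by 1.13 in the ICM and by -0.86 in the TE on the log2 scale, a difference of -1.99, with both MO libraries above both controls in the ICM and below both in the TE. The interaction had an unadjusted p of 0.0494 and, adjusted over all genes by limma, 0.574.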

How the results depend on the processing

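Of 18 calls of a deacetylase gene, 5 held in every alternative and with every library left out: Hdac1 and Hdac3 for 6 hpa against CC, Hdac1 and Hdac8 for morula against 6 hpa, and Hdac1 for ICM against CC. The fits of replicates 1 to 3 or 4 to 6 alone left out CCs, so comparisons with CC did not face them. Hdac1 had 7 alternatives for 6 hpa against CC, 8 for ICM against CC and 10 for morula against 6 hpa. Over 346 alternative values of called genes, 256 were still past the threshold, 90 were not and 0 had the opposite sign. The cause was not tested unless given.

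Counts of deacetylase genes called changed as follows. Quantile normalization gave 1 for 14 against 6 hpa, 1 for E2C against 14 hpa, 2 for 4C against L2C, 0 for 8C against 4C and 2 for ICM against morula. The replicate block gave 1 for 14 against 6 hpa, 1 for E2C against 14 hpa and 1 for ICM against CC, and 0 other counts moved by over 1.5 times. A pseudocount of 0.1 gave 1 for E2C against 14 hpa, 1 for L2C against E2C, 0 for 4C against L2C, 0 for 8C against 4C, 2 for morula against 8C and 0 for TE against morula. No filter gave 1 for L2C against E2C, 2 for 4C against L2C, 0 for 8C against 4C, 2 for morula against 6 hpa, 1 for Max MO in the ICM, 1 for Mcrs1 MO in the TE and 0 for control TE against ICM. A mean TPM of at least 5, which leaves fewer genes, gave 1 for L2C against E2C and 1 for morula against 6 hpa. Rescaling over reference genes gave 1 for E2C against 14 hpa, 4 for L2C against E2C, 2 for 4C against L2C, 0 for 8C against 4C and 2 for morula against 6 hpa. SCNT libraries only gave 1 for L2C against E2C and 0 for 8C against 4C. Replicates 1 to 3 alone gave 1 for E2C against 14 hpa, 0 for L2C against E2C, 0 for 8C against 4C, 0 for morula against 8C, 1 for ICM against morula and 1 for TE against morula. Replicates 4 to 6 alone gave 0 for 8C against 4C, 0 for morula against 8C, 2 for ICM against morula and 1 for TE against ICM. ICM replicates 4 to 6 only (chosen after seeing the data) gave 3 for ICM against morula and 1 for TE against ICM. Only the lineage or treatment compared gave 0 for control TE against ICM.

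With 1 library left out the counts ranged from 2 to 4 for 6 hpa against CC, 0 to 1 for E2C against 14 hpa, 1 to 2 for L2C against E2C, 0 to 1 for 4C against L2C, 0 to 1 for 8C against 4C, 0 to 1 for morula against 8C, 0 to 3 for ICM against morula, 1 to 3 for TE against morula, 0 to 1 for TE against ICM, 2 to 3 for morula against 6 hpa, 1 to 3 for ICM against CC, 0 to 2 for Max MO in the ICM, 0 to 3 for Mcrs1 MO in the ICM, 0 to 3 for control TE against ICM and 0 to 1 for both interactions.

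Over all genes, calls moved by over 1.5 times for TE against ICM (700 to 422 at a mean TPM of 5 and 446 after quantile normalization), E2C against 14 hpa (725 to 1158 after quantile normalization and 1318 in replicates 1 to 3), 14 against 6 hpa (1352 to 753 in replicates 1 to 3 and 2116 in replicates 4 to 6), and in replicates 1 to 3 for 4C against L2C (4624 to 2866), L2C against E2C (4190 to 2578) and morula against 8C (1521 to 829). With no filter they went from 280 to 170 for Max MO in the TE, 1131 to 721 for Mcrs1 MO in the ICM, 328 to 152 for control TE against ICM and 0 to 45 and 24 for the interactions (1 each with a pseudocount of 0.1). Quantile normalization gave 173 for Max MO and 329 in place of 570 for Mcrs1 MO in the TE. With only the compared libraries the ICM gave 1071 in place of 2659 for Max MO and 2 for Mcrs1 MO, the TE 1026 and 1542, and the controls 0. The percent of calls that were higher moved from 55.1 to 66.6 for 14 against 6 hpa, 58.0 to 32.7 for 8C against 4C and 68 to 79.1 for L2C against E2C after rescaling. After quantile normalization it moved from 30.7 to 51.7 for 4C against L2C, 37.2 to 47.7 for ICM against morula, 68 to 48.2 for L2C against E2C, 71.9 to 48.2 for morula against 8C, 73.4 to 52.7 for TE against ICM, 36.5 to 52.6 for Max MO in the ICM, 41.8 to 52.6 in the TE and 34.9 to 52.6 for Mcrs1 MO in the TE. In replicates 1 to 3 and 4 to 6 alone it was 76.8 and 9.03 for E2C against 14 hpa and 19.9 and 69.6 for ICM against morula, and with ICM replicates 4 to 6 only it was 30.1 for TE against ICM.

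The tables give no counting error, so how far depth limits the low genes was not tested. Taking the largest row in place of the sum moved 0 of 320 group means beyond their SD. TPM of assembled loci were close to those of reference genes for Hdac1 and Hdac2 (median ratio 1) but higher for Hdac8 (1.73), Hdac6 (2.36), Hdac11 (2.71, 3 libraries), Hdac5 (3.91), Hdac4 (4.10) and Hdac7 (4.28, 1 library). Only libraries with at least 1 TPM of the reference gene entered these ratios, so lower values and zeros were not compared. Levels and shares of these genes are those of the reference genes. A count model could not be run without counts.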
